A study of Mus musculus with 24 samples.

Results

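Apolipoproteins and lipid carriers of the absorptive enterocyte were followed through 24 mouse intestinal organoid libraries in which BRAFV600E, p53R172H or both had been switched on. The 9 genes, of 45706 gene IDs in the count tables, were listed by function: the apolipoproteins Apoa1, Apoa4, Apob, Apoc2 and Apoc3, the microsomal triglyceride transfer protein Mttp, the fatty acid binding proteins Fabp1 and Fabp2, and the fatty acid translocase Cd36. All 9 matched 1 gene ID each in the small intestinal and the colonic table. These genes and those of the other lists were chosen with earlier results of these data known. Their counts of calls beside the share of all genes are therefore descriptions.

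Organoids are epithelial cultures grown from intestinal stem cells. All were from C57BL/6N mice and all carried Villin::CreERT2, a tamoxifen-activated Cre recombinase under the gut epithelial Villin promoter. The 3 genotypes were BraffloxV600E/+;Villin::CreERT2 (BRAF), Trp53LSL-R172H/+;Villin::CreERT2 (p53) and BraffloxV600E/+;Trp53LSL-R172H/+;Villin::CreERT2 (BRAFp53), each grown from proximal small intestine (SI) and from colon (COL). On cultures received 4-hydroxytamoxifen for 24 h, at 0.5 µM in SI and 3.5 µM in COL. Off cultures carried the same unrecombined alleles and received ethanol for 24 h. RNA was taken on day 8 in SI and on day 3 in COL, and COL medium also held Wnt3a and the GSK3 inhibitor CHIR99021. This gave 12 groups of 2 libraries. The design text names 3 donor mice per tissue, while the methods name 3 without giving the tissue, and on either reading each genotype was 1 donor culture per tissue, and genotype and donor cannot be told apart. The 2 libraries of a group therefore measured the spread between treated wells of 1 donor culture and not between animals. Every p-value refers to that spread except in the comparison of SI with COL off cultures, which was run on sums per donor culture.

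Dietary fat enters the enterocyte as fatty acids and monoglycerides. Cytosolic fatty acid binding proteins bind these lipids, triglyceride is rebuilt at the endoplasmic reticulum, and microsomal triglyceride transfer protein loads it onto apolipoprotein B to form chylomicrons, which leave the cell with the smaller apolipoproteins on their surface. This programme belongs to mature villus enterocytes of the proximal gut, and colonocytes use little of it.

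The libraries held 44.4 M to 68.2 M counts in SI and 51.2 M to 78.2 M in COL (M, 1e+06). Levels are given as CPM (counts per 1e+06 counts) scaled by TMM normalisation over all 24 libraries, and 3 counts, the lowest level read as present, stood for 0.0368 to 0.0878 CPM. Intervals and floors of this kind cover counting error only. Trp53 was higher in on than off libraries of both p53-bearing COL genotypes, by 0.94 on the log2 scale each (edgeR adjusted p 0.0227 in p53 and 0.000623 in BRAFp53), and by 0.52 in SI BRAFp53 (adjusted p 0.0236). In SI p53 the Trp53 difference was 0.76 with an adjusted p of 0.194, and Trp53 was lower on than off in COL BRAF (−0.44, adjusted p 0.0332) and SI BRAF (−0.62, adjusted p 0.00351). Braf differed by 0.38 to 0.50 in the 4 BRAF-bearing comparisons and passed the test in none. The summed level of 6 epithelial genes was 5112 CPM or more in every library, against 14.5 CPM or less for 17 genes of stroma, blood and fat. The summed level of 7 colon genes was 92.6 to 193 CPM in SI and 1384 to 18310 CPM in COL, whereas the summed level of 6 small intestinal genes was not higher in SI (354.8 to 594.6 CPM) than in COL (501.4 to 1960 CPM). One library stood apart within its group: Xist was at 17.1 CPM in SI BRAF on replicate 1 and at 0.234 to 0.471 CPM in the other 3 SI BRAF libraries, while the Y-linked Ddx3y was present in all 4 at 32.8 to 40.3 CPM. Xist was at 115 to 166 CPM in the 8 SI libraries of the p53 and BRAFp53 genotypes. Where the Xist counts of replicate 1 came from was not tested. The members' tests that use SI BRAF on replicate 1 are given with and without it, while shares, ratios and genes of other lists are given with it.

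The genes Apoa1, Apoc3 and Apoa4 lie within 43.3 kb of chromosome 9 together with Apoa5 (chr9:46228580-46271919, GRCm38). Apoc2 lies on the minus strand of chromosome 7 (chr7:19671579-19677941), next to Apoe, Apoc1 and Apoc4. Apob is at chr12:7977648-8016835, Mttp at chr3:138089854-138144968, Fabp1 at chr6:71199827-71205023, Fabp2 at chr3:122895072-122899506 and Cd36 at chr5:17781690-17888801. The promoters of Apoa1 and Apoa4 are shown because these neighbours rose together in both BRAF-bearing SI cultures and shared no call in COL, and those of Fabp1 and Fabp2 because these paralogues moved in opposite directions in COL BRAF organoids. Each runs from 250 bases before to 50 bases after the RefSeq start on the plus strand (GRCm38.p6), at chr9:46228380-46228679, chr9:46240594-46240893, chr6:71199629-71199928 and chr3:122894822-122895121. Capitals mark matches, on either strand, to GTTAAT (written for HNF1) or TTTATNG (written for CDX).
Apoa1: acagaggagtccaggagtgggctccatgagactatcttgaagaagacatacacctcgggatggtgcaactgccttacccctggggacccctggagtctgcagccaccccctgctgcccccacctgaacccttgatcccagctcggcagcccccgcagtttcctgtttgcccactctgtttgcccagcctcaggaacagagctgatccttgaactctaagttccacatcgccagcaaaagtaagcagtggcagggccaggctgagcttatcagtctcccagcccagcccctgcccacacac
Apoa4: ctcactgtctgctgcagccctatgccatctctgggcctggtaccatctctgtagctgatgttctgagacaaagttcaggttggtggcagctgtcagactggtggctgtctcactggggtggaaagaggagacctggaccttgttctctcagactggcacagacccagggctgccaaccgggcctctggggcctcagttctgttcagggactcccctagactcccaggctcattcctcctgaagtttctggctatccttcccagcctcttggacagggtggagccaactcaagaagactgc
Fabp1: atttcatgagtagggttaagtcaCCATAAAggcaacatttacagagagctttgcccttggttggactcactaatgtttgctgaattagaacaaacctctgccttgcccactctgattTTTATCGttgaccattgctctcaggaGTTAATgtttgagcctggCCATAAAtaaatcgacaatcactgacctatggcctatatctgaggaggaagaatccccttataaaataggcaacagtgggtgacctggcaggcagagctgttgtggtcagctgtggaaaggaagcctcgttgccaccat
Fabp2: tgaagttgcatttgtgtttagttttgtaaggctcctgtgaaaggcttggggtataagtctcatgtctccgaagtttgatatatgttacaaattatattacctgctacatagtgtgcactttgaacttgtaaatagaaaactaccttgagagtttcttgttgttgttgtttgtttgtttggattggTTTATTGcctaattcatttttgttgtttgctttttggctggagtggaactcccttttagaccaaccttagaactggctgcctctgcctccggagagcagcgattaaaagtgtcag
The Fabp1 window held the HNF1 letters once and the CDX letters 3 times, and the Fabp2 window held the CDX letters once. The Apoa1 and Apoa4 windows held neither. Over the 8 genes with a promoter in the RefSeq table, the CDX letters were in 4 (Apob, Apoc2, Fabp1 and Fabp2) and the HNF1 letters in 2 (Apoc2 and Fabp1), against 10.9% and 7.1% of all 32851 promoters of that length. None of the 8 windows held AGATAA, which is written for factors of the Gata4 family and was in 11.2% of all promoters. None held CAAAGTCC (for HNF4, in 1.42%) or TGACCTTTG (for nuclear receptors on a direct repeat, in 0.478%). For every factor only the exact letters given were searched, so a window without them may hold other forms of a site. A match shows letters and not binding, which was not tested. Apoc3 is named only.

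The first comparison asked how the tissues differed before recombination. All 9 genes were higher in SI than in COL off cultures, and for each of them the lowest of 6 SI off libraries lay above the highest of 6 COL off libraries. Apoa1, the main protein of high density lipoprotein and also carried on chylomicrons, had a median of 3291 CPM in SI (2677 to 3811) and 270.0 CPM in COL (189.3 to 399.1), an 11.5-fold difference. Fabp1, the liver-type fatty acid binding protein, had a median of 10080 CPM in SI, from 3032 to 12230. In COL its 6 off libraries read 90.4 and 84.3 CPM in the BRAF culture, 0.580 and 0.428 CPM in the p53 culture and 0.0852 and 0.249 CPM in the BRAFp53 culture, so the COL cultures themselves were far apart. Fabp2, the intestinal type, had a median of 2443 CPM in SI and 190.0 CPM in COL, with a range of 160.9 to 384.8 CPM in COL. Per kilobase of exon, Fabp2 and Apoa1 were the highest 2 members in every COL group. On the sums of the 3 donor cultures per tissue the test was passed by 9 of 9 members, where 29.6% of 17789 tested genes passed, 12.6% higher in SI and 17% lower. With DESeq2 8 of the 9 members were called. Median log2 differences were 4.75 for the members and −0.08 for all genes. Apoc3, an inhibitor of lipoprotein lipase, was 57.1-fold higher (log2 5.83, SE 0.45, edgeR adjusted p 0.000988), and Apoc2, the activator of the same lipase, was 26.8-fold higher (log2 4.75, SE 0.58, adjusted p 0.00278). Apob differed least among the genes given a fold (log2 2.75, SE 0.40, adjusted p 0.00433). Cd36, a scavenger receptor that takes up long-chain fatty acids, held 27, 1 and 0 counts in the 3 COL off cultures and 2274, 5827 and 5312 in the SI cultures, so no fold is given. The difference in Fabp1 (log2 8.17, SE 2.45, adjusted p 0.0437) was 14.61 without the COL BRAF culture, and leaving out any other culture took the call away (adjusted p 0.0621 to 0.0961). The SI and COL cultures also differed in medium and days in culture and, for the p53 and BRAFp53 genotypes, in donor. These cannot be told apart from tissue. Cells of a type and RNA per cell cannot be told apart in such bulk libraries either, so a lower level may stand for fewer enterocytes or for less RNA in each.

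**Figure D1:**
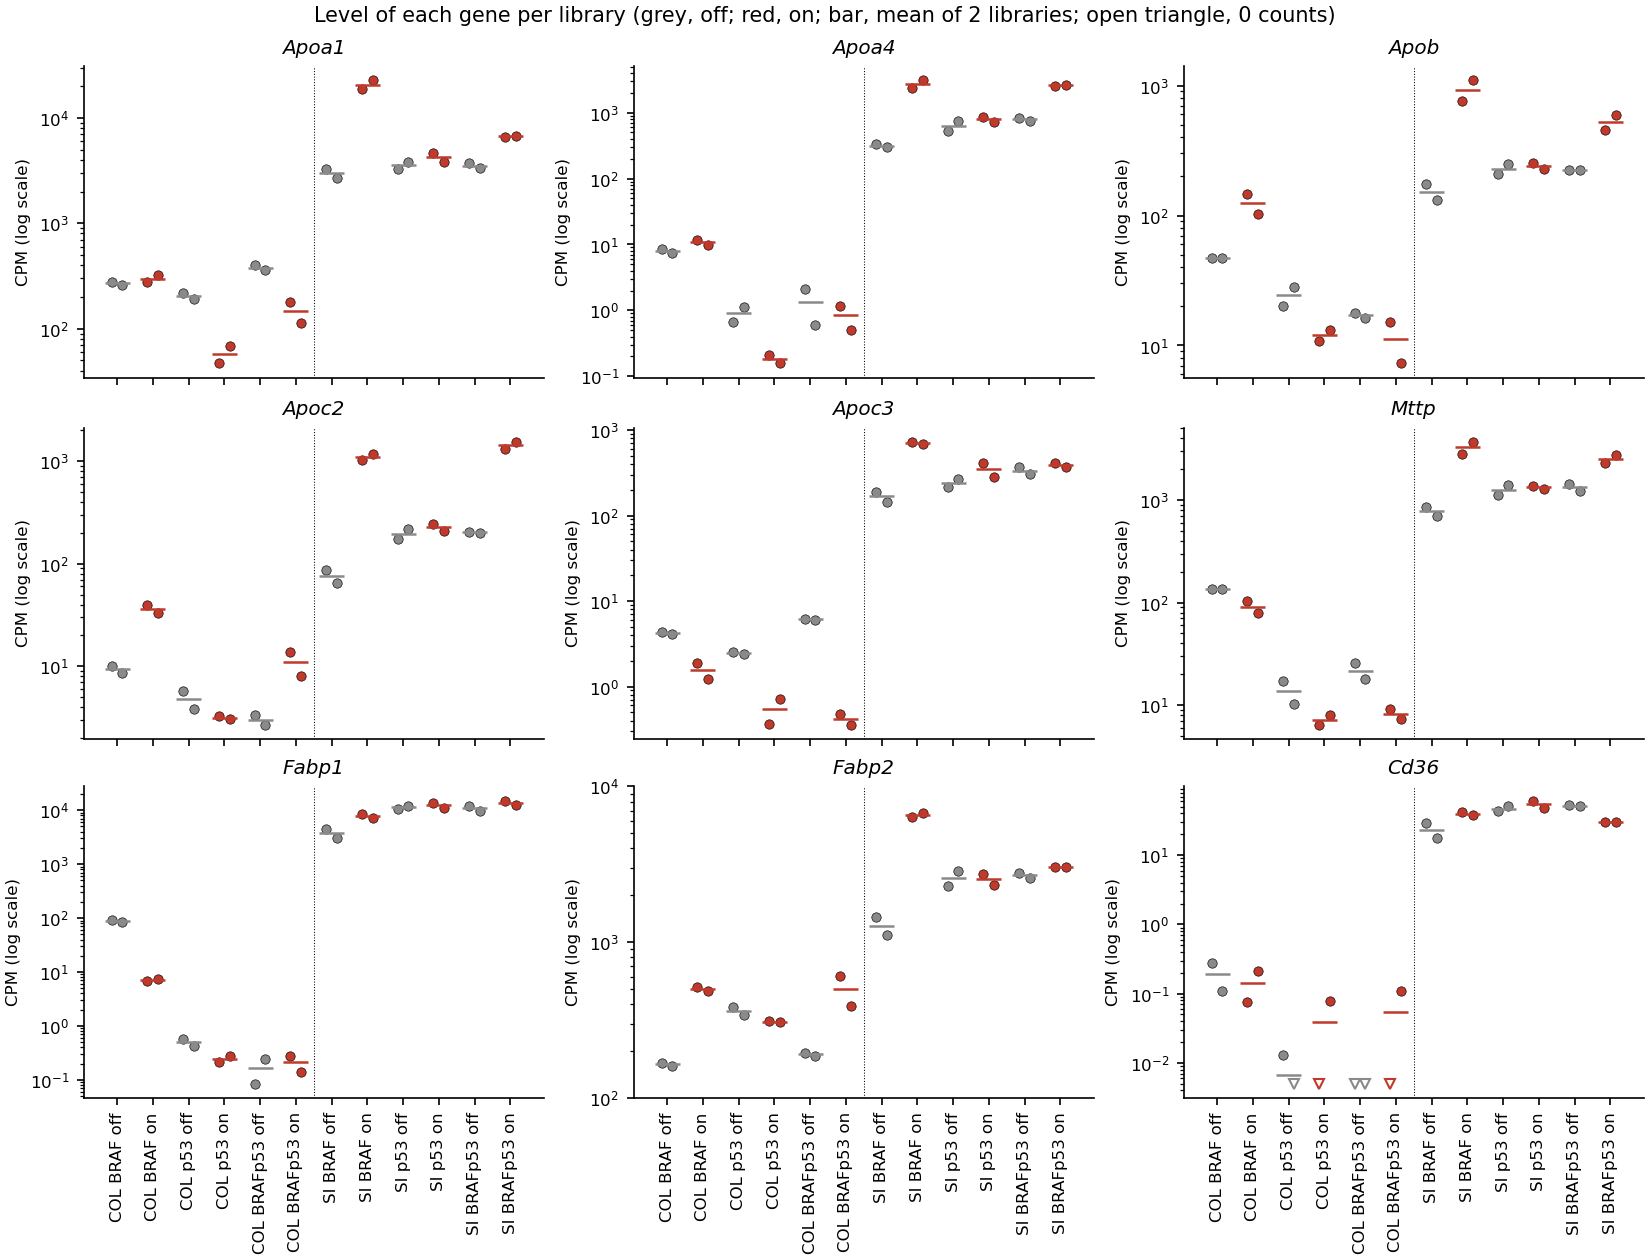
Level of each of the 9 genes in each of the 24 libraries, in TMM-scaled CPM on a log axis, by tissue, genotype and state (grey, off; red, on), with 1 point per library, a bar at the mean of 2 and open triangles for libraries with 0 counts. Every SI group mean lies above every COL group mean for all 9 genes, and in SI BRAF every on library lies above both off libraries.

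The SI off cultures did not start alike. All 9 genes had their lowest SI off mean in the BRAF culture: Fabp1 was at 3732 CPM ± 988.9 (SD, n = 2) there, against 10770 ± 1777 in the BRAFp53 culture. Cd36 was at 23.4 ± 7.85 CPM in the BRAF culture and 51.7 ± 1.10 in the BRAFp53 culture. Together the 9 genes made up 0.933% ± 0.149 of all counts in SI BRAF off libraries, 1.90% ± 0.159 in SI p53 off and 1.85% ± 0.186 in SI BRAFp53 off (SD, n = 2 each). Per kilobase of exon, Fabp1 led in each SI off group, Apoa1 and Fabp2 came next, and Apob and Cd36 were lowest. The COL BRAF culture also stood apart from the other COL cultures in its off state. Gata4, a transcription factor of the proximal small intestine, was at 49.4 and 42.0 CPM there and at 0.870 to 2.67 CPM in the other 4 COL off libraries, while Car1, a colonic carbonic anhydrase, was at 1328 and 1347 CPM against 3476 to 18010 CPM. The sum of all 6 small intestinal marker genes went the other way, at 619.3 and 543.9 CPM against 1031 to 1734 CPM. Mttp was at 136.6 and 136.0 CPM in the same culture, against 10.3 to 25.5 CPM in the other COL off libraries. The part of this background in the COL BRAF values was not tested.

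Ordered by group mean, the 12 groups fell into 6 SI groups above 6 COL groups for each gene. SI BRAF on was the highest group for Apoa1 (20660 CPM), Apob (928.3), Apoc3 (704.2), Mttp (3247), Fabp2 (6532) and Apoa4 (2727). For Apoa4 the next group, SI BRAFp53 on at 2611 CPM, overlapped it, and for Mttp the libraries of SI BRAF on (2816 and 3679 CPM) lay just above those of SI BRAFp53 on (2308 and 2744). Apoc2 was highest in SI BRAFp53 on (1302 and 1538 CPM), above both SI BRAF on libraries (1025 and 1165). Fabp1 was highest in SI BRAFp53 on, but the 4 on and off groups of the SI p53 and BRAFp53 genotypes overlapped each other in turn, and both SI BRAF groups lay under them. Cd36 was highest in SI p53 on, which overlapped SI BRAFp53 off and SI p53 off. The SI and COL ranges touched for 1 gene: Apob in SI BRAF off (173.7 and 131.7 CPM) overlapped COL BRAF on (145.6 and 103.4).

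BRAFV600E alone raised every one of the genes in SI organoids. All 9 members were called higher and none lower, where 31.7% of 16856 tested genes were called, 17.5% higher and 14.2% lower. The median log2 change was 2.31 for the members and −0.06 for all genes. The 9 genes together rose from 0.933% to 3.42% ± 0.207 of all counts. Sucrase, peptidase and other general enterocyte genes moved with them: 14 of 14 tested genes of that list were higher. Of 6 epithelial marker genes 5 were higher, and their sum went from 6504 and 6267 CPM off to 12820 and 14530 CPM on. Of 6 small intestinal marker genes 3 were lower, the Paneth cell genes Lyz1, Defa24 and Defa17 (−1.58, −1.26 and −1.35), and 1 was higher. The part of these cell markers in the result was not tested.

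Among the apolipoproteins, Apoa1 read 3268 and 2677 CPM off and 18680 and 22640 CPM on. The on libraries lay far above the off libraries, and the change was 6.74-fold (log2 2.75, SE 0.13, edgeR adjusted p 2.78e-08). Apoa4, an intestinal apolipoprotein secreted on chylomicrons after a fat meal, read 333.5 and 298.2 CPM off and 2370 and 3085 CPM on. It rose 8.36-fold (log2 3.06, SE 0.17, adjusted p 8.21e-08). Apob, the structural protein of the particle, read 173.7 and 131.7 CPM off and 761.3 and 1095 CPM on, without overlap. The increase was 5.89-fold (log2 2.56, SE 0.19, adjusted p 5.95e-07). Apoc2 had the largest change of the 9: 86.6 and 64.9 CPM off became 1025 and 1165 CPM on, 14.0-fold (log2 3.81, SE 0.16, adjusted p 2.53e-08). Apoc3 read 190.0 and 144.4 CPM off and 726.3 and 682.1 CPM on, a 4.09-fold rise (log2 2.03, SE 0.18, adjusted p 3.59e-06).

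The assembly factor and the carriers rose by less than Apoa1, Apoa4 and Apoc2. Mttp read 852.5 and 692.5 CPM off and 2816 and 3679 CPM on, and rose 4.07-fold (log2 2.03, SE 0.16, edgeR adjusted p 9.8e-07). Fabp2 read 1447 and 1106 CPM off and 6343 and 6721 CPM on. The change was 4.96-fold (log2 2.31, SE 0.13, adjusted p 8.87e-08). Fabp1, already abundant, read 4431 and 3032 CPM off and 8563 and 7161 CPM on, a 2.05-fold rise (log2 1.03, SE 0.17, adjusted p 0.000494). Per kilobase of exon, Apoa1 and Fabp1 then stood level in SI BRAF on, at 16710 ± 2268 and 14220 ± 1793 CPM per kb (SD, n = 2), whereas Fabp1 led in the other 5 SI groups. Cd36 had the smallest change, from 29.0 and 17.9 CPM off to 41.3 and 38.3 CPM on (log2 0.73, SE 0.19, adjusted p 0.00946). Cd36 lost its call without SI BRAF off replicate 2 (log2 0.42, adjusted p 0.111). Without SI BRAF on replicate 1, the library with Xist counts, all 9 genes were still called higher, at log2 2.89 for Apoa1, 3.91 for Apoc2, 0.90 for Fabp1 and 0.67 for Cd36.

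**Figure D2:**
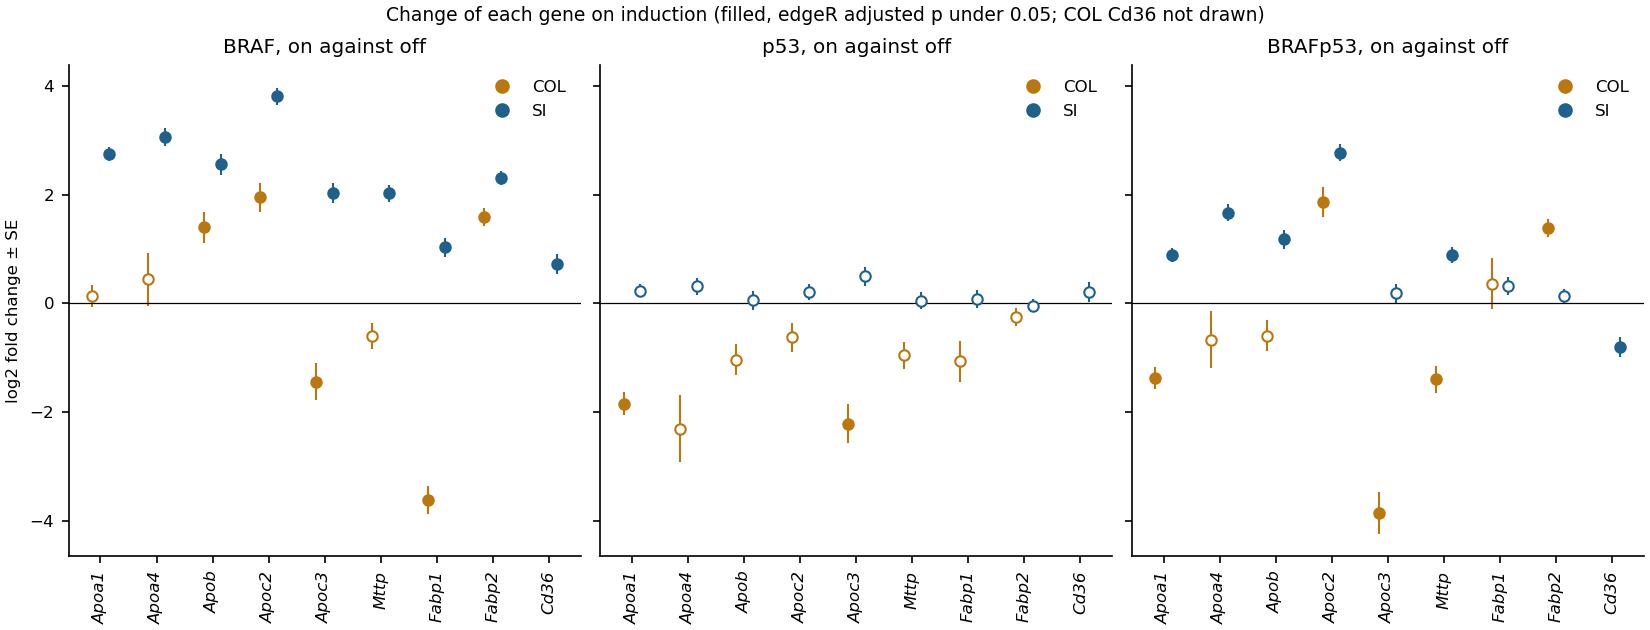
Log2 fold change of on over off libraries from edgeR, with bars of 1 SE, for each gene in COL (brown) and SI (blue), by genotype; filled points have an adjusted p under 0.05, and Cd36 in COL is not drawn. In SI BRAF organoids all 9 points lie above 0 and are filled, in SI p53 organoids none is filled, and in COL BRAF and COL BRAFp53 the genes lie on both sides of 0.

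In SI organoids that switched on p53R172H together with BRAFV600E, fewer of the genes rose and 1 fell. Of the 9, 5 were called higher and 1 lower, where 11.5% of tested genes were called, 6.98% higher and 4.53% lower, and the median log2 change was 0.89 for the members and −0.03 for all genes. Apoc2 again had the largest change: 205.7 and 198.1 CPM off became 1302 and 1538 CPM on (log2 2.78, SE 0.16, edgeR adjusted p 5.09e-07). Apoa4 read 843.6 and 753.5 CPM off and 2563 and 2659 CPM on (log2 1.67, SE 0.16, adjusted p 1.75e-05). These on levels of Apoa4 were in the range of SI BRAF on, from an off level that was higher. Apob went from 225.4 and 225.6 to 454.3 and 593.2 CPM (log2 1.18, SE 0.18, adjusted p 0.000741), Apoa1 from 3693 and 3314 to 6641 and 6692 CPM (log2 0.89, SE 0.12, adjusted p 0.000322), and Mttp from 1440 and 1218 to 2308 and 2744 CPM (log2 0.89, SE 0.15, adjusted p 0.00177). The on and off libraries of these 5 genes did not overlap. Cd36 was the gene that fell, from 52.5 and 50.9 CPM to 30.0 and 30.6 CPM (log2 −0.81, SE 0.19, adjusted p 0.0126), although its call was lost when any 1 of the 4 libraries was left out (adjusted p 0.0594 to 0.0764, at log2 −0.82 to −0.78). Fabp1 (12030 and 9515 CPM off, 15100 and 12600 CPM on), Fabp2 (2777 and 2584 off, 3028 and 3024 on) and Apoc3 (365.4 and 306.6 off, 413.9 and 373.1 on) did not pass the test, with log2 differences of 0.33 (SE 0.17), 0.14 (SE 0.12) and 0.19 (SE 0.18). Of 6 epithelial marker genes 4 were higher and 0 lower, with sums of 5488 and 5112 CPM off and 8274 and 8180 CPM on. Of 4 tested colon markers 0 were higher and 3 lower. Of 6 small intestinal markers 2 were higher, Defa24 (1.31) and Defa17 (0.93), and 1 was lower, Lct (−2.42). The part of these cell markers in the result was not tested.

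The difference between the SI BRAFp53 and SI BRAF responses was tested as an interaction. The response was smaller in BRAFp53 for 8 of 9 members and larger for none, where 8.2% of tested genes were called, 6.28% with a lower and 1.93% with a higher response. Fabp2 differed most, by −2.17 on the log2 scale (SE 0.18, edgeR adjusted p 2.75e-05), followed by Apoa1 with −1.86 (SE 0.17, adjusted p 5.58e-05) and Apoc3 with −1.84 (SE 0.25, adjusted p 0.000791). Cd36 differed by −1.53 (SE 0.26, adjusted p 0.00353), having risen in one genotype and fallen in the other. Apoa4, Apob, Mttp and Apoc2 differed by −1.39, −1.38, −1.13 and −1.03 (adjusted p 0.00205 to 0.00854). Fabp1 differed by −0.71 (SE 0.24, adjusted p 0.0935). Without SI BRAF on replicate 1 the same 8 genes were called, from −1.11 for Apoc2 to −2.21 for Fabp2 (adjusted p 3.58e-05 to 0.00703), and Fabp1 was at −0.56 (0.188). Both responses start from off cultures of different donors, and the BRAF off culture had the lower level of every gene, so the second allele and the donor culture cannot be told apart. The on libraries of the 2 genotypes overlapped for Apoa4, were higher in BRAFp53 for Apoc2 and Fabp1, and were lower in BRAFp53 for the other 6 genes.

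p53R172H alone left all 9 genes without a call in SI organoids. Apoa1 read 3258 and 3811 CPM off and 4605 and 3819 CPM on, Apoc2 173.3 and 216.6 CPM off and 245.7 and 209.0 CPM on, and Fabp2 2302 and 2849 CPM off and 2728 and 2340 CPM on. The off and on libraries overlapped for Apoc2 and Fabp2, and for Apoa1 the nearest of them were almost level. Log2 differences ran from −0.04 for Fabp2 to 0.50 for Apoc3 (unadjusted p 0.0138, adjusted p 0.738). Of 16856 tested genes edgeR called 0, with 873 at an unadjusted p under 0.05, while DESeq2 called 55 genes and limma voom 1, with no member among either. Without the filter on low counts edgeR called 155 genes, 1 of them a member.

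In COL organoids the on libraries of the BRAF culture moved in both directions. Of the 9 genes 3 were called higher and 2 lower, where 19.9% of 18972 tested genes were called, 10.3% higher and 9.61% lower. The median log2 change was 0.14 for the members and −0.01 for all genes. Apoc2 read 10.1 and 8.70 CPM off and 39.7 and 33.1 CPM on (log2 1.96, SE 0.27, edgeR adjusted p 0.000467). Fabp2 read 168.1 and 160.9 CPM off and 514.7 and 482.8 CPM on (log2 1.60, SE 0.17, adjusted p 9.65e-05). Apob, the third that rose, read 46.7 and 47.4 CPM off and 145.6 and 103.4 CPM on (log2 1.40, SE 0.28, adjusted p 0.00484). Fabp1 fell from 90.4 and 84.3 CPM to 6.78 and 7.49 CPM, by 3.62 on the log2 scale (SE 0.25, adjusted p 7.26e-06), and both on libraries still lay above the 8 libraries of the other COL cultures. Apoc3 fell from 4.36 and 4.08 CPM to 1.87 and 1.24 CPM (log2 −1.44, SE 0.34, adjusted p 0.0115), a call that was lost without on replicate 2 (adjusted p 0.0912) or off replicate 1 (0.0542). Apoa1 (278.1 and 261.9 CPM off, 274.9 and 322.7 on) and Apoa4 (8.4 and 7.36 off, 11.9 and 9.67 on) did not pass the test, nor did Mttp (136.6 and 136.0 off, 102.6 and 78.2 on; log2 −0.60, adjusted p 0.102). That Mttp difference was called lower with DESeq2 (adjusted p 0.0483), limma voom (0.025), the 4 libraries of the genotype alone (0.0131) and no filter on low counts (0.00078). Cd36 held 20 counts or fewer in each of these 4 libraries. Of 6 epithelial marker genes 5 were higher and 0 lower, with sums of 7136 and 6766 CPM off and 17170 and 16010 CPM on. Of 7 colon markers 3 were higher and 0 lower, with sums of 1384 and 1406 CPM off and 5033 and 3218 CPM on. Of 6 small intestinal markers 1 was higher and 0 lower, and of 9 tested stroma, blood and fat markers 1 was higher, Cd68 (0.93). The part of these cell markers in the result was not tested.

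With both alleles switched on in COL, 2 of the genes were called higher and 3 lower, where 17.7% of tested genes were called, 9.95% higher and 7.76% lower. Apoc2 rose from 3.35 and 2.68 CPM to 13.7 and 8.12 CPM (log2 1.86, SE 0.27, edgeR adjusted p 0.000912), and Fabp2 from 195.2 and 184.8 CPM to 604.5 and 387.9 CPM (log2 1.39, SE 0.17, adjusted p 0.000267). Both had also risen in COL BRAF. Apoc3 fell from 6.10 and 6.08 CPM (430 and 440 counts) to 0.478 and 0.355 CPM (39 and 23 counts), by 3.85 on the log2 scale (SE 0.38, adjusted p 8.04e-05). Apoa1 fell from 399.1 and 357.9 CPM to 178.5 and 113.3 CPM (log2 −1.37, SE 0.21, adjusted p 0.00112), and Mttp from 25.5 and 17.8 CPM to 9.17 and 7.27 CPM (log2 −1.39, SE 0.25, adjusted p 0.00278). Off and on libraries did not overlap for any of these 5. Mttp shares 457 exon bases with Trmt10a on the opposite strand, which was at a like level, and as strand use in the counting is not given in the sources used here, reads of this pair cannot be told apart. Apob read 17.7 and 16.3 CPM off and 15.2 and 7.27 CPM on. Its difference of −0.59 did not pass, and became −1.22 (adjusted p 0.0121) without on replicate 1 and −0.15 (adjusted p 0.772) without on replicate 2. Fabp1 was at 6 to 23 counts in the 4 libraries. Of 6 epithelial marker genes 5 were higher and 0 lower, with sums of 7731 and 7191 CPM off and 19180 and 15240 CPM on. Of 7 colon markers 1 was higher and 0 lower, and of 6 small intestinal markers 0 were higher and 1 lower, Defa17 (−1.81). Of 9 tested stroma, blood and fat markers 1 was higher, Cd68 (1.87), with list sums of 4.68 and 5.53 CPM off and 14.5 and 12.5 CPM on. The part of these cell markers in the result was not tested.

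p53R172H alone in COL gave 2 members called lower and none higher, where 0.142% of tested genes were called, 0.111% lower and 0.0316% higher. Apoa1 read 217.4 and 189.3 CPM off and 46.8 and 68.2 CPM on (log2 −1.85, SE 0.21, edgeR adjusted p 0.0089), so both on libraries lay well under both off libraries. The call was lost without off replicate 1 (adjusted p 0.0849). Apoc3 read 2.54 and 2.38 CPM off and 0.361 and 0.717 CPM on (log2 −2.21, SE 0.36, adjusted p 0.0456), and leaving out on replicate 1, off replicate 1 or off replicate 2 gave adjusted p 0.151, 0.23 and 0.0593. With the replicate number as a block its adjusted p was 0.0579. The other genes with enough counts also had lower means on than off, by −2.30 in Apoa4 (SE 0.61, adjusted p 0.216), −1.04 in Apob (0.239), −0.96 in Mttp (0.202), −1.06 in Fabp1 (0.425), −0.62 in Apoc2 (0.571) and −0.25 in Fabp2 (0.769). None of these passed. The number of members called was 1 with limma voom, 5 with DESeq2 and 6 without the filter on low counts.

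Apoc3 was the 1 gene lower in on than off libraries of all 3 COL cultures with a call in each, and Apoa1 was called lower in the 2 p53-bearing cultures. The COL BRAFp53 response minus the COL BRAF response was −1.51 for Apoa1 (SE 0.29, edgeR adjusted p 0.0466), −1.99 for Apob (SE 0.40, adjusted p 0.0477), −2.41 for Apoc3 (SE 0.49, adjusted p 0.0491) and 3.98 for Fabp1 (SE 0.53, adjusted p 0.0326). That made 1 member with a higher and 3 with a lower response, where 0.907% of tested genes were called, 0.532% with a higher and 0.374% with a lower one. These calls were close to the threshold, and leaving out 1 library moved the differences to −1.86 to −1.21 for Apoa1, −2.61 to −1.55 for Apob, −2.65 to −2.06 for Apoc3 and 3.37 to 4.96 for Fabp1. Apoc3 lost its call without any 1 of the 8 libraries, Apoa1 and Apob in 7 of 8 cases, and Fabp1 in 3 of 8, and Apoc3 also lost it with the replicate block (adjusted p 0.0509). For Fabp1 the BRAFp53 arm rests on 6 to 23 counts a library.

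The response to BRAFV600E was then compared between tissues in 1 fit of all 24 libraries. The SI response exceeded the COL response for 8 of 9 members and was lower for none, where 10.7% of 19673 tested genes were called, 7.4% with a higher and 3.31% with a lower SI response. Fabp1 differed most, by 4.69 on the log2 scale (SE 0.29, edgeR adjusted p 5.6e-08), since it rose in SI and fell in COL. That fall started from the off level of the COL BRAF culture, a mean of 87.3 CPM. The COL p53 and COL BRAFp53 off means were 0.504 and 0.167 CPM. Apoc3 also rose in SI and fell in COL, with a difference of 3.50 (SE 0.32, adjusted p 1.46e-06). Apoa1, Apoa4 and Mttp differed by 2.65 (SE 0.27), 2.66 (SE 0.44) and 2.66 (SE 0.32), with adjusted p of 5.33e-06, 0.000581 and 2.91e-05. Apoc2, which rose in both tissues, differed by 1.90 (SE 0.31, adjusted p 0.000456). Apob, at 1.2 (SE 0.36, adjusted p 0.0409), and Fabp2, at 0.76 (SE 0.23, adjusted p 0.0377), differed least. Their calls were lost when single libraries were left out, in 5 of 8 cases for Apob (adjusted p 0.0885 to 0.194) and in 7 of 8 for Fabp2 (0.0567 to 0.187), SI BRAF on replicate 1 included for Fabp2. Without that library the other 7 genes were still called, from 1.44 for Apob (adjusted p 0.0222) to 4.55 for Fabp1 (adjusted p 9.6e-08). The medium, the 4-hydroxytamoxifen dose and the day of harvest differed with tissue, and each response came from 1 donor culture. These factors cannot be told apart from tissue.

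With both alleles, 5 members had a higher and 1 a lower response in SI than in COL, where 3.52% of tested genes were called, 2.13% with a higher and 1.39% with a lower one. Apoc3 differed by 4.07 (SE 0.35, edgeR adjusted p 1.04e-05), Apoa1 by 2.30 (SE 0.27, adjusted p 0.000107) and Mttp by 2.32 (SE 0.32, adjusted p 0.000479). Apoa4 differed by 2.36 (SE 0.52, adjusted p 0.0163) and Apob by 1.81 (SE 0.37, adjusted p 0.0101). The Apoa4 difference was 1.09 without COL BRAFp53 off replicate 1 and lost its call in 3 of 8 cases, and the Apob call was lost without SI BRAFp53 on replicate 2 (adjusted p 0.0605). Fabp2 went the other way, by −1.21 (SE 0.23, adjusted p 0.00581), as it rose in COL and not in SI. Apoc2 differed by 0.95 (SE 0.32, adjusted p 0.104), and Fabp1 by −0.01 on COL counts of 23 or fewer. For p53R172H alone, 2 members had a higher SI response and none a lower one, where 0.117% of tested genes were called, 0.107% higher and 0.0102% lower. These were Apoa1, with 2.07 (SE 0.27), and Apoc3, with 2.71 (SE 0.35), both at an adjusted p of 0.0024. The Apoc3 call was lost with limma voom (adjusted p 0.197). For both the BRAFp53 and the p53 genotype, donor and donor sex, as read from Xist and Ddx3y, also changed with tissue.

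Ratios within a library do not depend on its scaling and show which of a pair moved more. The ratio of Apoc2, the lipase activator, to Apoc3, the lipase inhibitor, was higher in on than in off libraries of 5 of the 6 cultures. It went from 0.456 and 0.450 to 1.41 and 1.71 in SI BRAF, and from 0.563 and 0.646 to 3.14 and 4.12 in SI BRAFp53. In SI p53 it read 0.811 and 0.802 off and 0.592 and 0.748 on. The COL values spread more widely, from 0.549 and 0.441 to 28.7 and 22.9 in BRAFp53 and from 2.31 and 2.13 to 21.3 and 26.7 in BRAF, on Apoc3 levels under 2 CPM in each COL on library. COL p53 went from 2.28 and 1.60 to 9.0 and 4.31. The ratio of Fabp1 to Fabp2 was 3.06 and 2.74 in SI BRAF off and 1.35 and 1.06 in SI BRAF on, Fabp2 having risen more than Fabp1. In the SI p53 and BRAFp53 cultures it stayed between 3.68 and 4.99 in all 8 libraries. In COL BRAF it went from 0.538 and 0.524 to 0.0132 and 0.0155, and in the other 8 COL libraries it was between 0.000358 and 0.00151. The ratio of Apoa1 to Apoa4 in SI went from 9.80 and 8.98 to 7.88 and 7.34 in BRAF and from 4.38 and 4.40 to 2.59 and 2.52 in BRAFp53.

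**Figure D3:**
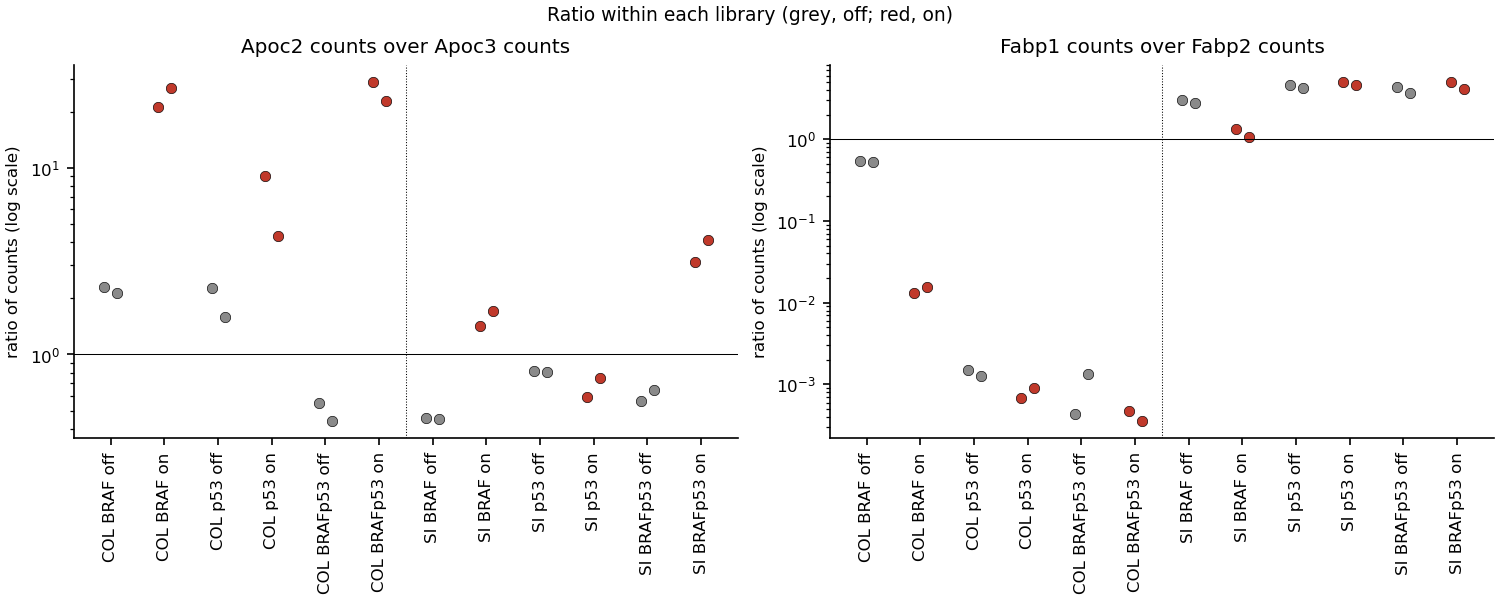
Ratio of the counts of Apoc2 to Apoc3 (left) and of Fabp1 to Fabp2 (right) in each library on a log axis, by tissue, genotype and state (grey, off; red, on), with 1 point per library and a line at a ratio of 1. The Apoc2 to Apoc3 ratio is higher in on than in off libraries except in SI p53, and the Fabp1 to Fabp2 ratio is 0.0132 and 0.0155 in COL BRAF on.

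Other genes of the same pathways were read from lists of lipoprotein assembly and export, triglyceride resynthesis, lipid uptake and sterol transport, other apolipoproteins and other intracellular lipid binding proteins. In SI BRAF, where 17.5% of all tested genes were higher and 14.2% lower, 11 of 13 tested assembly genes were higher and 0 lower, among them Apobec1, which edits Apob mRNA (log2 1.69, SE 0.15, edgeR adjusted p 3.56e-06), and P4hb, the partner subunit of microsomal triglyceride transfer protein (log2 1.48, SE 0.13). Of 12 triglyceride genes 10 were higher and 1 lower. Acsl5, which activates fatty acids to acyl-CoA, rose by 2.08 (SE 0.12), and Dgat2, which catalyses the last step of triglyceride synthesis, by 1.86 (SE 0.16), while Lpin1 fell by 0.46. Of 13 uptake and sterol genes 7 were higher and 2 lower, led by the fatty acid transporter Slc27a4 (1.66) and the cholesterol esterifying enzyme Soat2 (1.60), with Slc27a2 among the lower ones (−0.50). Of 8 other apolipoproteins 3 were higher, Apoa2 by 0.82 (adjusted p 0.0494) and, named after their values were seen, the weakly expressed Apoh (1.67) and Clu (2.84). Of 6 other binding proteins 3 were higher and 1 lower. Fabp6, a carrier of bile acids, rose by 4.62 (SE 0.30), Rbp2, a carrier of retinol, by 2.32 (SE 0.10), and Fabp5 fell by 0.63. The general enterocyte genes that rose most were the peptide transporter Slc15a1 (4.25) and the aminopeptidase Anpep (3.26).

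In SI BRAFp53, where 11.5% of all tested genes were called against 31.7% in SI BRAF, the same lists also gave fewer calls: 5 higher and 0 lower of the assembly genes, 4 and 1 of the triglyceride genes, 4 and 1 of the uptake genes, none of the other apolipoproteins, 2 and 0 of the binding proteins, and 5 and 3 of the general enterocyte genes. Apobec1 rose by 0.88, Dgat2 by 1.45, the sterol exporter subunits Abcg8 and Abcg5 by 1.11 and 0.89, and Rbp2 by 1.34 (edgeR adjusted p 3.27e-06 to 0.00169). Lactase, Lct, fell by 2.42 (SE 0.17, adjusted p 2.07e-06) and Anpep by 0.59. The BRAFp53 response was lower than the BRAF response for 8 assembly, 7 triglyceride, 5 uptake and 13 general enterocyte genes and higher for none of these 4 lists, while 2 binding proteins had a lower and 1 a higher response, where 6.28% of all tested genes had a lower and 1.93% a higher response. In SI p53 no gene of any list was called.

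In COL most called assembly and triglyceride genes were higher, and called general enterocyte genes lay on both sides. In COL BRAF, where 10.3% of all tested genes were higher and 9.61% lower, 4 assembly genes were higher and 1 lower, 5 triglyceride genes higher and 0 lower, 1 uptake gene higher and 1 lower, 3 binding proteins higher and 1 lower, 1 other apolipoprotein higher (Clu, by 1.01) and 0 lower, and 4 general enterocyte genes higher and 5 lower. In COL BRAFp53 the counts were 7 and 0, 5 and 0, 1 and 2, 3 and 0, 0 and 0, and 3 and 5, where 9.95% of all tested genes were higher and 7.76% lower. Apobec1 rose in both, by 1.81 (SE 0.25, edgeR adjusted p 0.000487) and 1.38 (SE 0.24, adjusted p 0.00266), and so did Agpat2, an acyltransferase of triglyceride synthesis (1.69 and 1.32), and the retinol carrier Rbp2 (1.82 and 1.05). The enterocyte genes split: Slc15a1 rose by 2.40 in BRAF, while the glucose transporter Slc5a1 fell by 1.30 there and the disaccharidase Sis and the peptidase Dpp4 fell by 2.40 and 1.59 in BRAFp53. In COL p53, where 0.111% of all tested genes were lower, the general enterocyte list had 2 genes lower, Sis by −2.0 and Anpep by −1.38, and the pathway lists none.

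**Figure D4:**
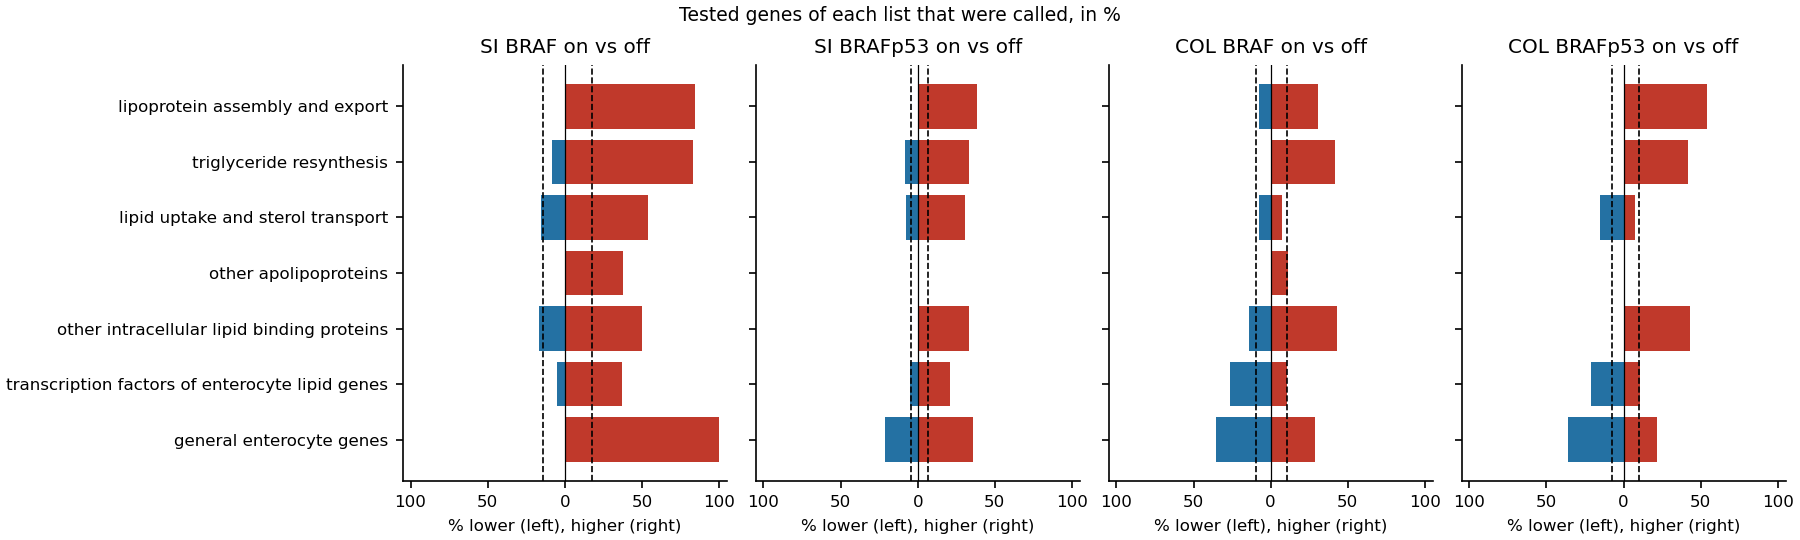
Percentage of the tested genes of each list that edgeR called higher (red, right of 0) and lower (blue, left of 0) at an adjusted p under 0.05, in the 4 BRAF-bearing on against off comparisons, with dashed lines at the percentage of all tested genes called in that direction. In SI BRAF all 14 general enterocyte genes are higher, and in COL the general enterocyte bars extend to both sides.

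Transcription factors that act on these genes in liver and gut were read as their own list. Hnf4a, a nuclear receptor of the enterocyte programme, rose by 0.26 in SI BRAF (SE 0.09, edgeR adjusted p 0.0409) and passed in no other on against off comparison. Its paralogue Hnf4g rose by 0.85 in SI BRAF (SE 0.18, adjusted p 0.00256), fell by 0.74 in COL BRAF (SE 0.19, adjusted p 0.0179) and was higher in SI than COL off cultures by 2.63. Hnf4g thus had opposite signs in the 2 tissues, with a difference of 1.63 (SE 0.29, adjusted p 0.00104). Creb3l3, a membrane-bound factor of apolipoprotein genes, rose by 1.83 in SI BRAF (SE 0.14), 0.53 in SI BRAFp53 (adjusted p 0.0251) and 2.09 in COL BRAFp53 (SE 0.43, adjusted p 0.00626). Ppara, the fatty acid sensing nuclear receptor, fell by 1.27 in COL BRAF (adjusted p 0.0349) and by 1.86 in COL BRAFp53 (adjusted p 0.00849). Cdx2 and Gata4 passed in no on against off comparison. Over the 19 factors tested, 7 were higher and 1 lower in SI BRAF, 4 and 1 in SI BRAFp53, 2 and 5 in COL BRAF, and 2 and 4 in COL BRAFp53. All tested genes were called higher and lower at 17.5% and 14.2%, 6.98% and 4.53%, 10.3% and 9.61%, and 9.95% and 7.76%, so the higher calls in COL were near that share.

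Neighbours on the chromosome did not all move with the members. Of 8 tested genes around the chromosome 9 cluster, 2 were higher in SI BRAF, Pcsk7 by 1.02 (edgeR adjusted p 0.00043) and Sidt2 by 0.77, and 0 in SI BRAFp53. In COL BRAF 3 were higher, Tagln by 1.70 and Pcsk7 and Sidt2 by less than 0.5, and in COL BRAFp53 1, Pcsk7 by 1.09. The shares of all tested genes called higher were 17.5% in SI BRAF, 10.3% in COL BRAF and 9.95% in COL BRAFp53, which the counts in SI BRAF and COL BRAFp53 were near. Zpr1, Bud13, Sik3 and Pafah1b2 were called in no on against off comparison. Apoa5, which lies within the cluster, held 59 counts or fewer in any library. Around Apoc2 on chromosome 7, Nectin2 was higher by 0.75 to 0.94 in all 4 BRAF-bearing cultures, Relb (0.66) and Tomm40 (0.52) were higher in COL BRAF, and Clptm1 and Apoe were called in none. Apoc4 held 28 counts or fewer and Apoc1 4 or fewer in any library. Exons of Apoc2 overlap Gm44805 on the same strand by 646 bases, and those of Apoa4 overlap the antisense Gm10680, which held 4 counts or fewer in any library, by 632 bases.

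**Figure D5:**
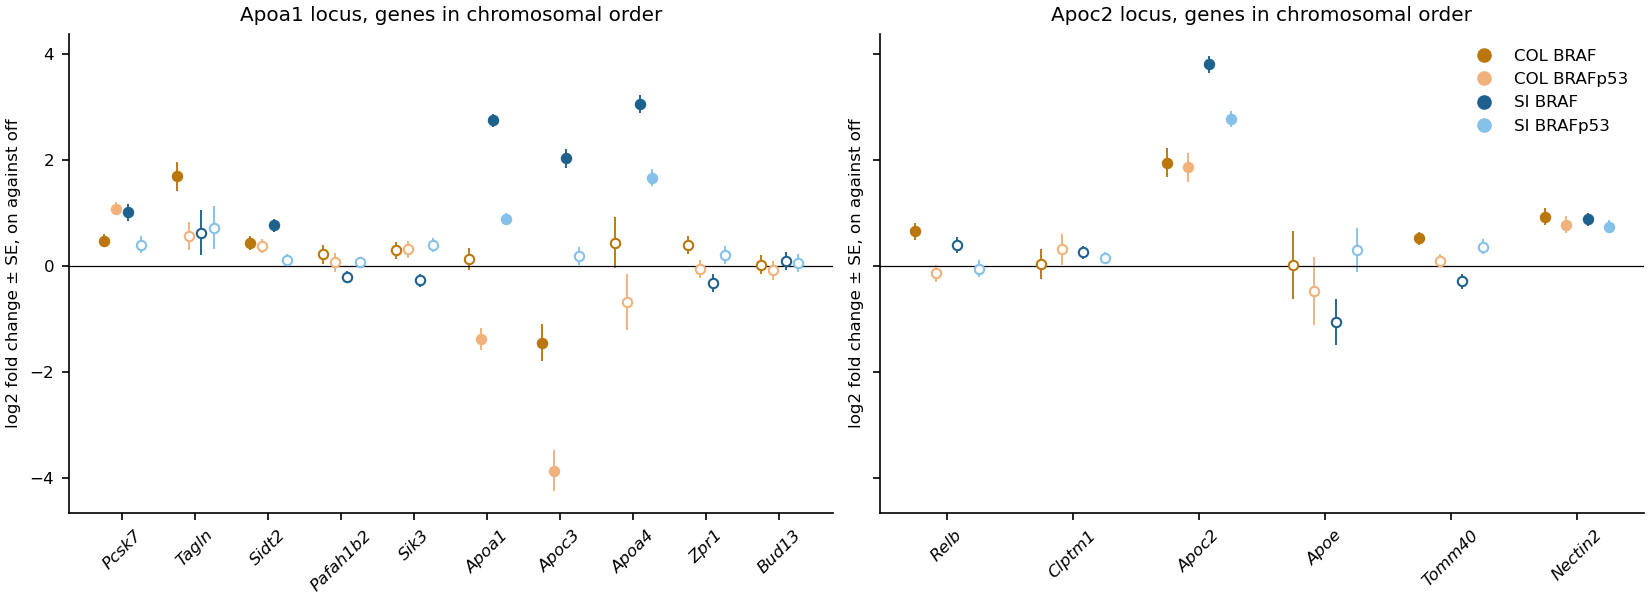
Log2 fold change of on over off libraries, with bars of 1 SE, for the genes of the Apoa1 (left) and Apoc2 (right) neighbourhoods in chromosomal order in the 4 BRAF-bearing cultures, with filled points for an edgeR adjusted p under 0.05; Apoa5, Apoc1 and Apoc4, at low counts, are not drawn. In SI BRAF the points of Apoa1, Apoc3, Apoa4 and Apoc2 stand at 2.03 to 3.81 and the other genes drawn at 1.02 or less.

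Across the 12 group means, each centred on its tissue mean, the members did not share 1 pattern. Apoa4 and Mttp (Pearson r 0.952), Apoa4 and Apob (0.910) and Apob and Mttp (0.878) were alike, and so were Mttp and Fabp1 (0.862) and Fabp1 and Cd36 (0.859). Fabp2 was unlike Fabp1 (−0.138) and Mttp (0.0585), and Apoc2 unlike Apoc3 (0.181). Among 10297 genes, those most like Mttp were Anxa13 (0.983), Abcg8 (0.977) and Hkdc1 (0.974). Those most like Apoa4 were Mogat2, an enzyme of triglyceride resynthesis (0.963), Hkdc1 (0.956) and Paxx (0.955), and the nearest to Apoc2 were Fam162a (0.973), Tmem253 (0.963) and Enpp3 (0.962). Apoa1 was followed most closely by Foxj3 (0.952), Fabp1 by Gip (0.960), Fabp2 by Vamp8 (0.957), Apoc3 by Unc5cl (0.936), Apob by Sema6d (0.924) and Cd36 by Cox8a (0.930). These coefficients are descriptions over 12 groups that share 6 donor cultures and the same scaling. The COL BRAF off and on means stood above the other COL groups for several members. Fabp1 was at 87.3 and 7.14 CPM there against 0.504 or less, and Mttp at 136.3 and 90.4 against 21.7 or less. Apoa4 was at 7.88 and 10.8 CPM against 1.36 or less. COL Cd36 held 20 counts or fewer in every library. The part of either in the coefficients was not tested.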

How the data were processed

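RNA of 24 organoid libraries was sequenced as paired-end reads on an Illumina HiSeq4000. Per the submitters' processing notes and the study's methods, the authors trimmed reads with Trimmomatic 0.36, aligned them to mm10 and counted them per gene with STAR 2.5.2b (mm9 is also named, with no role given) and deposited unnormalised read counts per Ensembl gene, 1 table per tissue. Which annotation was counted, and whether strand was used, is not given in the sources used here. Reads shared by overlapping genes may therefore be missing from a count or assigned to either gene.

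Counts were analysed in R 4.3.3 with edgeR 4.0.16: TMM scaling, the default filterByExpr filter and the quasi-likelihood test, with the 12 libraries of a tissue in 1 fit, all 24 in 1 fit for differences between tissues, and summed counts of the 6 donor cultures for SI against COL off. Benjamini-Hochberg adjustment ran over all tested genes, at 0.05. A SE is the absolute log2 fold change divided by the root of the F statistic. Scripts were tested on simulated data with known changes. DESeq2 1.42.0 and limma 3.58.1 (voom), other filters and scaling, the replicate block and leaving out each library were alternatives. Positions and exon lengths came from GENCODE M21 (GRCm38), which held 45143 of the 45706 gene IDs, and promoters from RefSeq (GRCm38.p6), which held 8 of the 9 genes. The figures were drawn with matplotlib 3.10.9.

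The 9 members and 147 genes in 13 lists were chosen with earlier results of these data known. Named were all members, Braf and Trp53, 6 transcription factors, the genes of both loci, up to 2 called genes with the largest change per list, direction and comparison (average log2 CPM of at least 2), and the 3 genes most like each member in group means (prior count 2). Some genes that this rule selects are not reported here. Replicates of a group were separate libraries (r 0.982 to 0.992 across genes) that differed by more than sampling noise. Deviations of on and off libraries with the same replicate number correlated at −0.0776 to 0.119 over the 6 cultures, so the numbers did not pair the samples.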

Additional observations from a re-analysis of the deposited data

Results flagged for a closer look

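The results below stood out because the on against off change differed between tissues or between genotypes in a test of the difference itself, with edgeR and Benjamini-Hochberg adjustment over all tested genes. Values are differences of log2 fold changes.

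Between SI and COL, the BRAF response was higher in SI for Apoa1 (2.65), Apoa4 (2.66), Apob (1.2), Apoc2 (1.90), Apoc3 (3.50), Mttp (2.66), Fabp1 (4.69) and Fabp2 (0.76), at adjusted p from 5.6e-08 to 0.0409. For Fabp1 the COL fall started from a COL BRAF off mean of 87.3 CPM, against 0.504 and 0.167 CPM in the other COL off cultures. The BRAFp53 response was higher in SI for Apoa1 (2.30), Apoa4 (2.36), Apob (1.81), Apoc3 (4.07) and Mttp (2.32) and lower for Fabp2 (−1.21), at adjusted p from 1.04e-05 to 0.0163. The p53 response was higher in SI for Apoa1 (2.07) and Apoc3 (2.71), both at adjusted p 0.0024, and the Apoc3 call was lost with limma voom (adjusted p 0.197). Medium, 4-hydroxytamoxifen dose and day of harvest changed together with tissue and cannot be told apart from it. For the p53 and BRAFp53 genotypes the same holds for the donor and its sex, as read from Xist and Ddx3y.

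Between BRAFp53 and BRAF within SI, the response was lower in BRAFp53 for Apoa1 (−1.86), Apoa4 (−1.39), Apob (−1.38), Apoc2 (−1.03), Apoc3 (−1.84), Mttp (−1.13), Fabp2 (−2.17) and Cd36 (−1.53), at adjusted p from 2.75e-05 to 0.00854. Within COL it was lower for Apoa1 (−1.51), Apob (−1.99) and Apoc3 (−2.41) and higher for Fabp1 (3.98), at adjusted p from 0.0326 to 0.0491. These COL calls were close to the threshold, and with 1 library left out only 0 to 2 members were called. For Fabp1 the BRAFp53 libraries held 6 to 23 counts. Each genotype was 1 donor culture, and the donor cannot be told apart from the alleles.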

How the results depend on the processing

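Of 680 member values that had an adjusted p under other settings, 644 kept their direction and side of the threshold, 7 lost a call, 29 gained one and 0 reversed. Of 630 values with 1 library, or for SI against COL off 1 donor culture, left out, 545 kept both, 57 lost a call, 3 gained one and 25 reversed. The members called in COL p53, 2 with the settings of the report, were 6 without a filter on low counts, 5 with DESeq2, 1 with limma voom, 1 with a replicate block and 1 with the 4 libraries of the genotype alone. They were 1 without a filter in SI p53 (0 in the report), 3 with a minimum absolute log2 change of 1 in SI BRAFp53 (6 in the report), and 7 without a filter and 1 with limma voom for the p53 response SI minus COL (2 in the report). With 1 library left out, members called ranged from 4 to 5 in COL BRAF, 0 to 2 in COL p53, 5 to 6 in COL BRAFp53, 8 to 9 in SI BRAF, 0 to 0 in SI p53, 5 to 5 in SI BRAFp53, 0 to 2 for COL BRAFp53 minus BRAF, 8 to 9 for SI BRAFp53 minus BRAF, and 6 to 8, 2 to 2 and 4 to 7 for the BRAF, p53 and BRAFp53 responses SI minus COL, and from 8 to 9 with 1 culture left out of SI against COL off. Signs turned, or a difference went to 0, within these ranges: Apoa4 in COL BRAFp53 −1.40 to 0.52 and in COL BRAFp53 minus BRAF −1.84 to 0.0739, Apob in SI p53 −0.0491 to 0.17, Apoc2 in COL BRAFp53 minus BRAF −0.50 to 0.25, Cd36 in COL BRAF −1.37 to 0.36, COL p53 −2.25 to 4.51, COL BRAFp53 0 to 5.93 and the p53 response SI minus COL −4.11 to 2.30, Fabp1 in COL BRAFp53 −0.26 to 1.34, SI p53 −0.0766 to 0.23 and the BRAFp53 response SI minus COL −0.97 to 0.63, Fabp2 in COL BRAFp53 minus BRAF −0.55 to 0.0912 and SI p53 −0.17 to 0.10, and Mttp in SI p53 −0.10 to 0.22. None of these was a called result. By single settings, Apoc3 lost its call with limma voom in COL p53 (adjusted p 0.0568), COL BRAFp53 minus BRAF (0.0522) and the p53 response SI minus COL (0.197), and with the 4 libraries of the genotype in COL p53 (0.215), Apoa4 lost it with limma voom in the BRAFp53 response SI minus COL (0.144), and Fabp1 gained one with DESeq2 in SI BRAFp53 minus BRAF (0.0249). Cd36 in COL and Fabp1 in COL p53 and BRAFp53 lie near the counting floor, which limits them. The cause of the other changes was not tested.

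With the replicate number as a block, Apoc3 lost its call in COL p53 (adjusted p 0.0579) and in COL BRAFp53 minus BRAF (0.0509), while Fabp1 in SI BRAFp53 minus BRAF (0.0259) and Apoc2 in the BRAFp53 response SI minus COL (0.0353) gained one. The block changed no other call of a member. Over all genes, calls in COL p53 were 27 in the report, 22 with the block, 569 without a filter, 324 with DESeq2 and 14 with 4 libraries. They were 172 against 1312 (no filter), 391 (at least 10 counts in every library) and 1366 (DESeq2) in COL BRAFp53 minus BRAF, 0 against 155 (no filter), 55 (DESeq2), 17 (4 libraries) and 1 (limma voom) in SI p53, 1383 against 2089 (DESeq2) in SI BRAFp53 minus BRAF, and 5270 against 3475 for SI against COL off with donor genotype as a block. For the p53 response SI minus COL 23 genes became 488 (no filter), 39 (at least 10 counts) and 155 (DESeq2), and for the BRAFp53 response 693 became 1548 (no filter) and 1554 (DESeq2).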

Other observations

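Among genes of the lists, Fabp6, Lct and Anpep had marked changes in SI. Fabp6, the bile acid carrier, read 2.22 and 2.43 CPM in SI BRAF off and 41.8 and 77.4 CPM in SI BRAF on (log2 change 4.62, edgeR adjusted p 2.42e-07). In SI BRAFp53 it held 7 and 8 counts off and 1 and 2 counts on, too few for a change to be read. Lct, the lactase of the brush border, read 73.8 and 53.8 CPM in SI BRAF off and 114.8 and 125.8 CPM in SI BRAF on, and 18.6 and 20.1 CPM in SI BRAFp53 off and 4.22 and 3.20 CPM in SI BRAFp53 on. The difference of the Lct responses was −3.30 (SE 0.23, adjusted p 1.16e-05). Lct, like Cd36, fell in SI BRAFp53 organoids, where Apoa1, Apoa4, Apob, Apoc2 and Mttp rose. Anpep differed in the same direction, by −3.85 (SE 0.22, adjusted p 2.15e-06).

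The level of Xist, a transcript of the inactive X chromosome, was 0 to 3 counts in all 12 COL libraries and 115 to 166 CPM in the SI libraries of the p53 and BRAFp53 genotypes, and Ddx3y was at 45.9 to 64.8 CPM in COL and at 4 counts or fewer in those SI libraries. The SI and COL cultures of these genotypes thus did not share a donor, and the design text names 3 donors per tissue. By these 2 genes the donors also differed in sex, and so did the SI BRAF culture from the other SI cultures.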
